A study of Solanum chacoense with 24 samples.

Results

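Leaves of the USDA8380-1 genotype of Solanum chacoense, a wild relative of the cultivated potato, were sampled 24 h after adult Colorado potato beetles had been placed on the plants. Members were all libraries whose labels give this genotype and this harvest. There were 4 such libraries of 24 in all, 2 from the beetle arm (replicates 1 and 2) and 2 from the beetle-free control arm (replicates 1 and 2). The question was which genes differed between fed-on and beetle-free leaves at this hour.

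The whole series covered 2 genotypes (USDA8380-1 and EE501F2_093), both arms, and harvests at 0, 24 and 48 h, with 2 libraries in each of 12 groups. Plants of both genotypes had been raised from in vitro plantlets, 6 per genotype and 2 per cage, and were 15 weeks old when 50 beetles, starved beforehand, were put into each treatment cage. Each genotype had 2 treatment cages and 1 control cage, and the 0 h harvest came just before the beetles were added. The libraries were called biological replicates by the submitters and each pooled leaves from the same position on the plants. The labels do not tie libraries to plants or cages, and both control libraries come from the 1 control cage, so beetle feeding and cage cannot be told apart. The p-values below measure the spread between these pools.

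Chewing by leaf beetles wounds the leaf and brings oral secretions into contact with damaged cells. In plants of the potato family, wounding is known to trigger jasmonate signalling, which switches on defence genes such as those for proteinase inhibitors and polyphenol oxidases, both locally and in distant leaves. Wild potatoes such as Solanum chacoense are also known for glycoalkaloids, including leptines, that deter the Colorado potato beetle. No source used here pairs the gene identifiers with names or products, so none of these pathways could be followed, the leaf identity of the tissue could not be checked by marker genes, and no function is given for any gene below. Fewer cells of a type and less RNA per cell cannot be told apart in such bulk tissue.

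The 2 beetle libraries held 38692788 and 34575643 counts on genes, and the 2 control libraries held 51999317 and 28293997. A count was present for 25671 and 25263 genes in the beetle libraries, against 26629 and 24799 in the control libraries. Expression is given below in CPM on the TMM scale, read counts scaled for library size and composition. A total of 24870 of 32917 genes passed the filter on low counts and were tested.

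The control libraries were far less alike than the beetle libraries. With 0.5 CPM added, 3633 genes differed by at least 2-fold between the beetle libraries, against 7141 between the control libraries. Across genes, the correlation of log2 CPM was 0.948 between the beetle libraries and 0.907 between the control libraries. Beetle replicate 1 lay closer to control replicate 1 than to its own replicate, with 2249 genes at least 2-fold apart and a correlation of 0.961. From control replicate 2 it differed at 6720 genes. Beetle replicate 2 differed at 3529 genes from control replicate 1 and at 7517 genes from control replicate 2.

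Set against all 12 libraries of the genotype, control 24 h replicate 2 had 631 genes at least 2-fold above and 634 genes at least 2-fold below the other 11. Beetle 24 h replicate 2 had 420 genes above and 18 below. Control 24 h replicate 1 had 285 above and 0 below, and beetle 24 h replicate 1 had 1 above and 0 below. The only other library with counts of this size was beetle 0 h replicate 3, with 742 above and 479 below, and it was shallow at 2114184 counts. Each of the 4 libraries of 24 h correlated best with a library of its labelled genotype. These correlations were 0.987 and 0.956 for the beetle libraries and 0.963 and 0.928 for the control libraries. The highest correlations with an EE501F2_093 library were 0.942 and 0.931 for the beetle libraries and 0.929 and 0.914 for the control libraries. The margin was smallest for control replicate 2. Its correlations ranged from 0.882 to 0.928 with USDA8380-1 libraries (median 0.907) and from 0.889 to 0.914 with EE501F2_093 libraries. With its own replicate it correlated at 0.907, below its best with an EE501F2_093 library. Only beetle 24 h replicate 1 therefore lay almost wholly inside the range of the others, and the other 3 libraries of this harvest each held genes of their own.

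**Figure D1:**
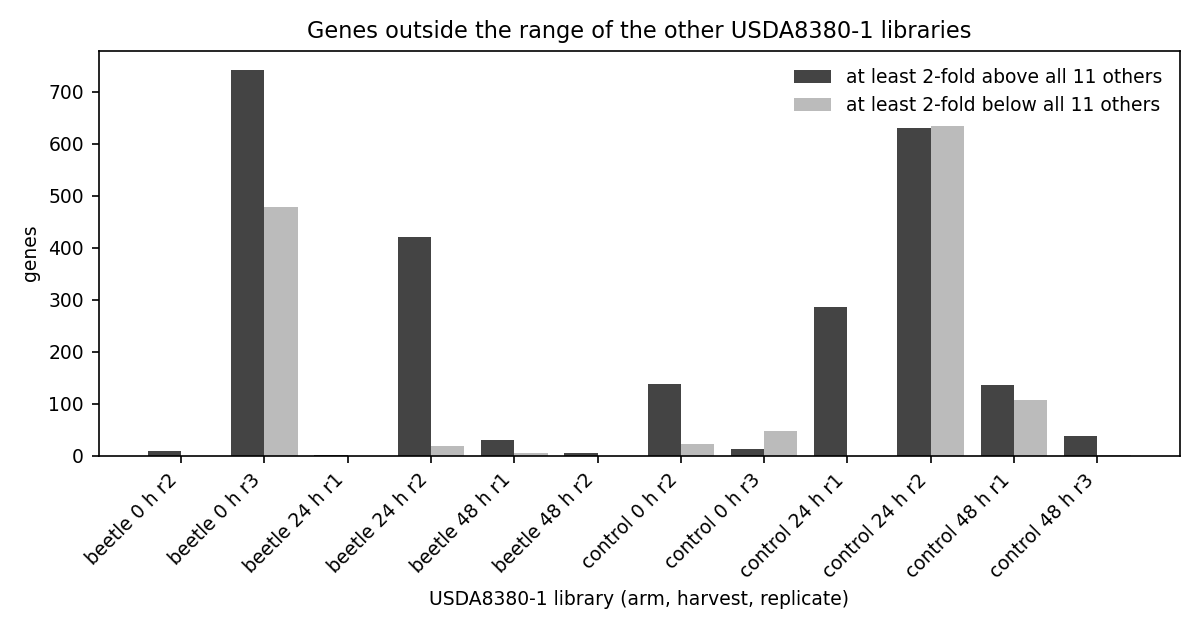
Number of genes (vertical axis) that lay at least 2-fold above (dark bars) or below (light bars) all 11 other USDA8380-1 libraries, for each of the 12 libraries, on CPM with 0.5 added. Control 24 h replicate 2 reached 631 and 634, beetle 24 h replicate 2 reached 420 above, and beetle 24 h replicate 1 had 1.

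Against both control libraries together, no gene passed an adjusted p of 0.05 by edgeR's quasi-likelihood test with Benjamini-Hochberg adjustment, and 0% of genes tested were called. The smallest adjusted p was 0.341. At an unadjusted p under 0.05 there were 2876 genes, 11.6% of those tested, of which 1017 were higher and 1859 lower in beetle leaves. DESeq2 called 237 genes, 86 higher and 151 lower. The count rested on single libraries. Without control replicate 1, 1886 genes were called (801 higher and 1085 lower), and without control replicate 2, 6 were called (0 higher and 6 lower). Without beetle replicate 1, 100 were called (99 higher and 1 lower), and without beetle replicate 2, 0 were called, with 1595 genes at an unadjusted p under 0.05.

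The fits with a single control library hold 1 library on the control side, so they cannot measure the spread between the 24 h controls. Both fits share the beetle libraries and are not independent. The overlap of their calls is therefore not read as a result.

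A gene was therefore counted as held when both beetle libraries differed from each control library by at least 2-fold on the CPM + 0.5 scale. By this description, which carries no test, 53 genes were held higher and 135 were held lower in beetle leaves, 0.213% and 0.543% of the genes tested. Against control replicate 1 alone the same rule gave 120 higher and 1031 lower genes (0.483% and 4.15%), and against control replicate 2 alone 2408 higher and 1870 lower (9.68% and 7.52%). At 4-fold, 3 genes remained higher and 17 lower. Without any minimum fold, both beetle libraries lay above both controls in 3761 genes (15.1%) and below both in 3685 (14.8%). They lay above control replicate 1 in 26.9% of genes and below it in 30.8%, and above control replicate 2 in 39.8% and below it in 36.5%.

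Values near the threshold formed no gap. The weakest pair of a beetle and a control library was 2.003-fold apart in the held higher gene nearest the threshold and 1.973-fold in the nearest gene outside it. For lower genes the ratios were 2.001 and 1.992. The widest gaps were 9.05-fold for a higher gene and 6.55-fold for a lower one. A further 58 genes lay at least 2-fold below control replicate 1 and at least 2-fold above control replicate 2 in both beetle libraries, and 8 genes showed the reverse.

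**Figure D2:**
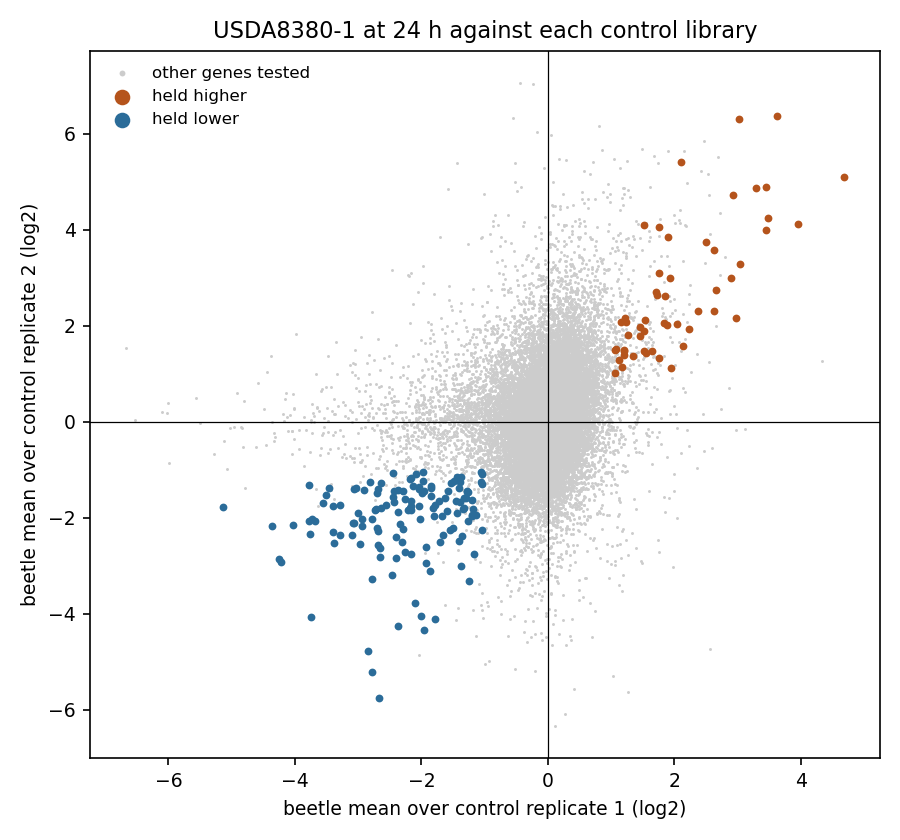
Mean of the 2 beetle libraries over control replicate 1 (horizontal axis) and over control replicate 2 (vertical axis), both as log2 of CPM + 0.5, for the genes tested. The 53 genes held higher lie at the upper right and the 135 held lower at the lower left, and the cloud of other genes is taller than it is wide.

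The same rule gave larger counts before any beetle was present. At 0 h, 220 genes were held higher and 596 held lower in the beetle arm of this genotype (0.885% and 2.4%). At 48 h, 137 were held higher and 18 lower (0.551% and 0.0724%). In EE501F2_093 at 24 h the counts were 83 and 77 (0.334% and 0.31%). The 53 and 135 genes at 24 h are thus no more numerous than the genes held by the same rule at 0 h. The 0 h libraries include beetle replicate 3, shallow at 2114184 counts. Differences of cage, pool and depth cannot be told apart in the 0 h counts.

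The 53 higher genes ranged from low to very high abundance, with mean levels over the 4 libraries between 0.554 and 8085 CPM and a median of 9.76 CPM. Their levels were higher in beetle replicate 2 than in beetle replicate 1 for 41 of 53 genes, and at least 2-fold higher for 18. The median gap was 0.72 on the log2 scale, against 0.00 over all genes tested. Both beetle libraries lay above all 6 control-arm libraries of the genotype in 34 of 53 genes, against 2.42% of all genes tested. They lay above all 8 beetle-free libraries, which add the 2 beetle-arm libraries of 0 h, in 28 genes, against 1.32%. The held rule had used 2 of those 6 and 8 libraries, so these shares are descriptions. With the 2-fold minimum kept, 13 genes stood above all 6 control-arm libraries (0.0523% of those tested) and 7 above all 8 beetle-free libraries (0.0281%), and no gene stood below them.

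The 48 h libraries of the same genotype entered the filter and the scaling, but not the held rule that chose these genes. There, 45 of 53 were higher in beetle leaves by fitted fold change, with a median log2 fold change of 1.13 against 0.00 over all genes. The beetle libraries of 48 h lay above both their controls in 22 of 53 genes (41.5%), where 19.4% of all genes tested did so. Beetle replicate 1 of 48 h exceeded both controls in 37 genes and beetle replicate 2 in 26, where 36.9% and 30.6% of all genes tested did so. At 0 h, 39 of 53 were already higher in the beetle arm, with a median of 0.41, and the libraries lay above both controls in 19 genes (35.8%, against 22.4% of all genes). In EE501F2_093 at 24 h, 31 of 53 were higher, with a median of 0.19, and 17 lay above both controls (32.1%, against 15.1%). These shares are given as descriptions and no test over the list was made.

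The 135 lower genes were mostly of low abundance, with mean levels between 0.297 and 470 CPM and a median of 3.37 CPM. A mean of at least 5 CPM was reached by 56 of them and a mean of 50 CPM or more by 5. The 24 h values that chose these genes also enter the following counts, which are descriptions. Both control libraries of 24 h lay above all 6 beetle-arm libraries in 112 of 135 genes, against 4.18% of all genes tested. They lay above both control libraries of 48 h in 103, against 18.3%, and above both control libraries of 0 h in 48, against 22.6%. Both beetle libraries of 24 h lay below their own 0 h libraries in 38 genes, against 15.3%, and below all 6 control-arm libraries in 17 genes, against 1.93% of all genes tested.

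At 48 h the direction was not shared. Only 60 of 135 were lower in beetle leaves, with a median log2 fold change of 0.11, and the beetle libraries lay below both controls in 16 genes (11.9%, against 16.2% of all genes tested). At 0 h, before beetles, 104 of 135 were lower in the beetle arm, with a median of -1.68, and both beetle-arm libraries lay below both controls in 79 genes (58.5%, against 24.6%). In EE501F2_093 at 24 h, 57 of 135 were lower, with a median of 0.13, and 16 lay below both controls (11.9%, against 14.7%). By sign and by lack of overlap, the share lower than control was thus above the background before beetles were added. By the same measures it was under the background at 48 h and in the other genotype. By size of fold change, 18.5% of the 135 were at least 2-fold lower at 48 h and 25.2% at least 2-fold higher, against 7.47% and 8.35% of all genes. In EE501F2_093 at 24 h these shares were 9.63% and 24.4%, against 5.59% and 8.46%.

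**Figure D3:**
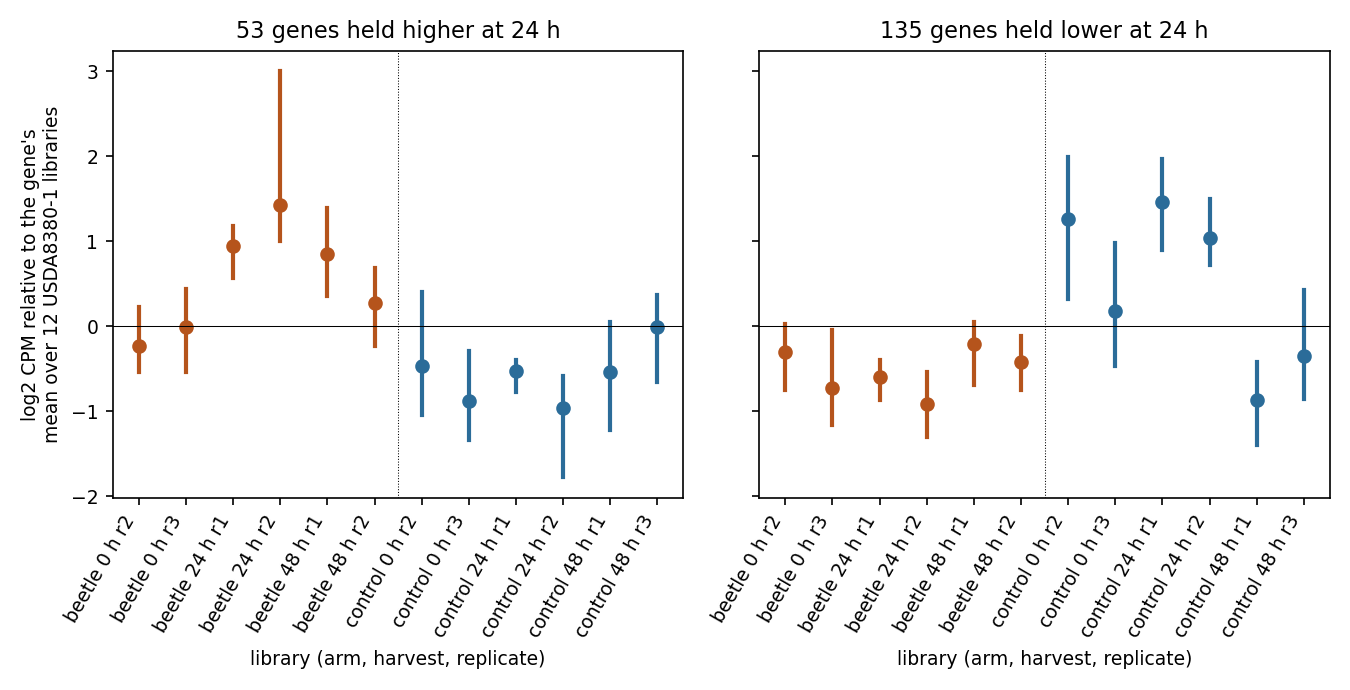
Median (points) and quartiles (lines) of log2 CPM + 0.5, relative to each gene's mean over the 12 USDA8380-1 libraries, for the genes held higher (left panel) and lower (right panel) at 24 h, with beetle-arm libraries left of the dotted line and control-arm libraries right of it. The higher genes reach a median of 1.42 in beetle 24 h replicate 2 and 0.94 in replicate 1, against -0.53 and -0.96 in the 24 h controls.

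The identifiers carry a chromosome number after DM. By it, 11 of the 53 higher genes were on chromosome 10 (20.8%, against 6.8% of genes tested) and 7 on chromosome 8 (13.2%, against 7.5%). Of the 53, 10 lay in 3 runs of genes whose identifiers were at most 5 places apart in the list of genes. This 18.9% was near the share of the genes held by the same rule at 0 h, 17.7% of those higher and 22.7% of those lower, and also near that of the higher genes of EE501F2_093 at 24 h (20.5%). It was below that of the higher genes of 48 h (26.3%). Genes in such runs can be similar copies, and whether they shared reads could not be checked without sequences. The run on chromosome 10 held 5 genes over 13 consecutive identifiers. Its summed level was 63.0 and 399 CPM in the beetle libraries, against 19.6 and 1.85 CPM in the control libraries. Both beetle libraries were higher than both controls, as the held rule requires of each gene summed, with beetle replicate 2 the highest by far. At 0 h the run summed to 27.7 and 48.5 CPM in the beetle arm and 57.9 and 25.5 CPM in the control arm, which overlapped. At 48 h it summed to 76.2 and 41.5 CPM in the beetle arm and 28.4 and 16.6 CPM in the control arm.

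The run on chromosome 8 held 3 genes over 4 identifiers. Its summed level was 36.5 and 313 CPM in the beetle libraries of 24 h, against 7.66 and 0.667 CPM in the controls. At 0 h it was 7.04 and 10.6 CPM in the beetle arm, against 2.002 and 0.587 CPM in the control arm, and at 48 h 38.7 and 3.92 CPM, against 6.15 and 5.09 CPM. Beetle replicate 2 of 48 h was below both its controls. Among the 135 lower genes, 30 lay in 13 runs of at most 4 genes. This 22.2% was near the 22.7% of genes held lower at 0 h. It was above the 7.8% in EE501F2_093 at 24 h and the 0% of the 18 genes held lower at 48 h. There were 2 runs of 4. The run on chromosome 2 summed to 15.4 and 11.8 CPM in the beetle libraries of 24 h, against 58.7 and 60.8 CPM in the controls. At 0 h it summed to 19.7 and 17.3 CPM in the beetle arm, against 40.0 and 24.0 CPM in the control arm, and at 48 h to 14.8 and 17.4 CPM, against 25.3 and 13.8 CPM, where the arms overlapped. The run on chromosome 10 summed to 90.0 and 109 CPM in the beetle libraries of 24 h, against 249 and 289 CPM in the controls. At 0 h it summed to 57.6 and 38.2 CPM in the beetle arm, against 95.1 and 33.9 CPM in the control arm, and at 48 h to 97.1 and 62.1 CPM, against 374 and 112 CPM.

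Soltu.DM.11G013160.1, on chromosome 11, had the widest gap to each control library among higher genes with a mean of at least 5 CPM. It was at 248 and 736 CPM in the beetle libraries, against 27.0 and 23.9 CPM in the controls. Both beetle libraries were far above both controls. The fold change, 4.27 on the log2 scale (SE 2.37), had an adjusted p of 0.490 by edgeR and was not called. The other harvests show its wide spread. At 0 h it was at 35.7 and 11.8 CPM in the beetle arm, against 318 and 0.913 CPM in the control arm, and at 48 h at 597 and 44.9 CPM, against 48.1 and 15.6 CPM. The control library at 318 CPM lay above the lower beetle library of 24 h, and the arms overlapped at 0 h and 48 h.

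Soltu.DM.06G034550.2, on chromosome 6, varied much less between replicates. It was at 82.1 and 146 CPM in the beetle libraries, against 12.9 and 10.7 CPM in the controls, a mean of 114 ± 45.2 CPM against 11.8 ± 1.57 CPM (SD, n = 2 each). The groups were far apart. Its log2 fold change was 3.27 (SE 0.59), with an adjusted p of 0.341 by edgeR, equal to the smallest reached by any gene. By DESeq2 the adjusted p was 6.91e-05, and it was called by edgeR without control replicate 1 (adjusted p = 0.0263) and without beetle replicate 1 (adjusted p = 0.0274). It was at 34.6 and 25.2 CPM in the beetle arm at 0 h, against 19.8 and 10.9 CPM in the control arm, and at 102.7 and 32.6 CPM at 48 h, against 8.64 and 20.5 CPM. The beetle arm was thus higher at every harvest, before beetles too. In EE501F2_093 at 24 h it was at 47.6 and 48.1 CPM in beetle leaves, against 58.1 and 93.5 CPM. USDA8380-1 minus EE501F2_093, the beetle effects differed by 3.94 on the log2 scale (SE 0.79), with an adjusted p of 0.839, so it is not shown to be particular to USDA8380-1.

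Soltu.DM.06G018590.1, also on chromosome 6, had the widest gap among lower genes. It was at 4.92 and 0.796 CPM in the beetle libraries, against 35.0 and 44.1 CPM in the controls. The controls agreed closely and stood well above both beetle libraries. By edgeR the log2 fold change was -3.78 (SE 1.52, adjusted p = 0.397). At 0 h it was at 5.84 and 1.97 CPM in the beetle arm, against 67.0 and 1.89 CPM in the control arm. At 48 h the order turned, with 7.28 and 1.68 CPM in the beetle arm against 0.554 and 0.759 CPM in the control arm. The control arm alone therefore ranged from under 1 CPM to 67.0 CPM.

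Soltu.DM.06G030470.1, on the same chromosome, was at 0.333 and 0.0955 CPM in the beetle libraries, against 4.55 and 18.8 CPM in the controls. The beetle libraries were near 0 and the higher control was replicate 2. Its log2 fold change was -5.71 (SE 1.20) with an adjusted p of 0.370 by edgeR, and it was called without control replicate 1 (adjusted p = 0.00986) and by DESeq2 (adjusted p = 0.000133). It was at 1.07 and 2.76 CPM in the beetle arm at 0 h, against 0.385 and 0.261 CPM in the control arm, and at 0.530 and 0.619 CPM at 48 h, against 0.439 and 0.342 CPM. The 24 h controls were the highest of all 12 libraries.

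**Figure D4:**
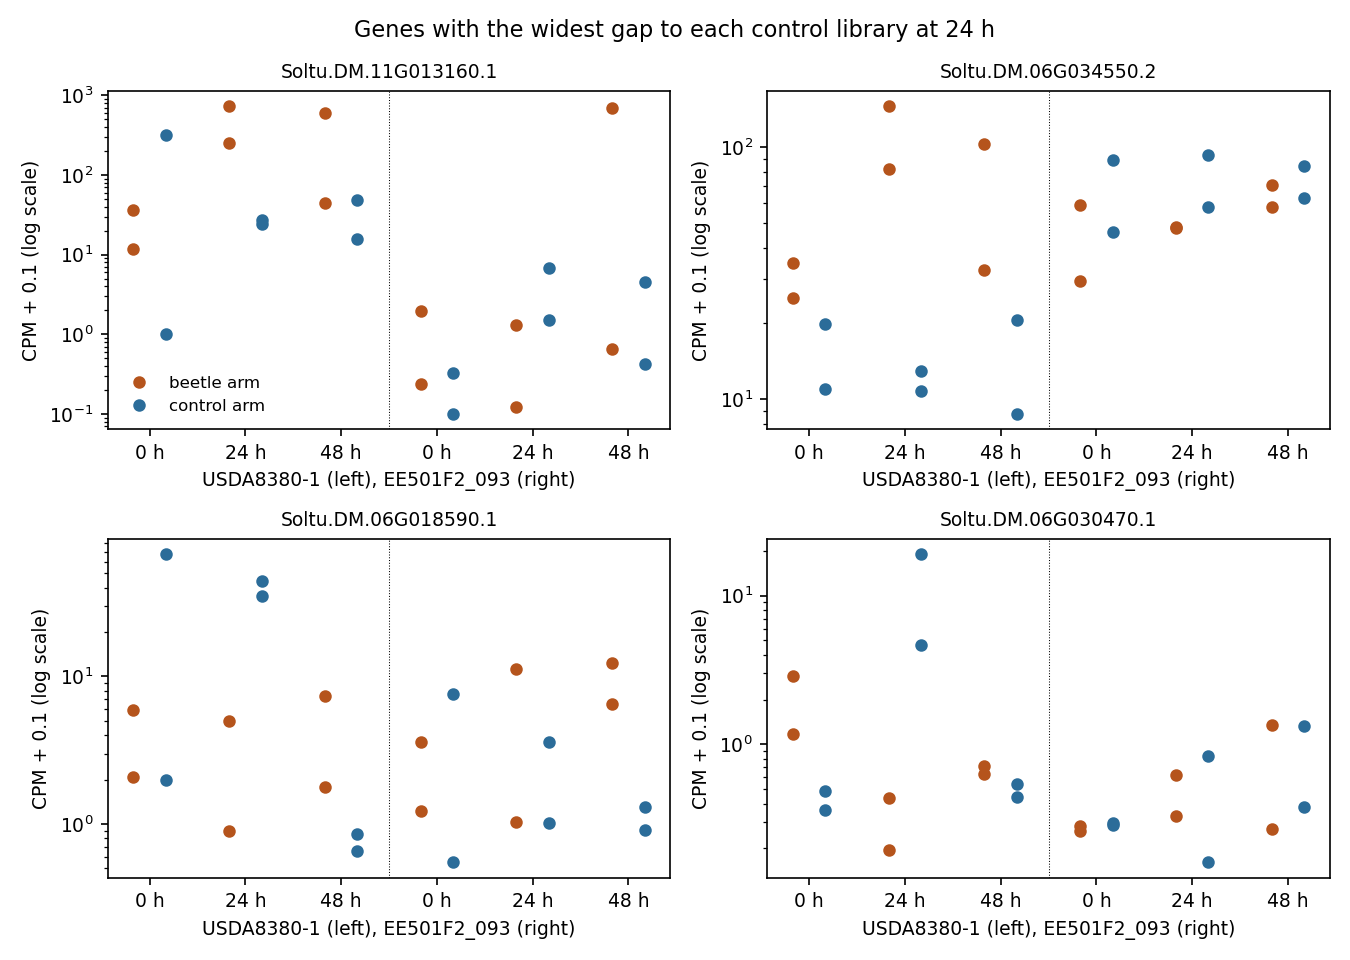
CPM + 0.1 (log scale) of the 4 named genes in all 24 libraries by harvest, with USDA8380-1 left and EE501F2_093 right of the dotted line, and the beetle arm left of the control arm at each harvest. Each point is 1 library. At 24 h in USDA8380-1 the arms do not overlap in any of the 4, because the genes were chosen for that gap. Soltu.DM.11G013160.1 reaches 318 CPM in 1 control library of 0 h.

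Because control replicate 2 of 24 h weighed so much, a further comparison was made. The beetle libraries of 24 h were set against the mean of the control groups at 0, 24 and 48 h. This reference holds 6 libraries but does not match the hour. All 6 come from the 1 control cage of this genotype, which held 2 plants. The fit counts repeated harvests of that cage as independent, so the p-values do not measure variation between control cages. By edgeR, 79 genes were called (0.318% of those tested), of which 78 rose and 1 fell, and the smallest adjusted p was 0.00151. DESeq2 called 381 (314 higher and 67 lower). This comparison rested on beetle replicate 2. It was above all 6 control-arm libraries in 78 of the 78 genes, and replicate 1 in 31, where 17.9% and 6.63% of all genes tested were so. The same libraries chose these genes, so the counts are descriptions. The median level over the mean of the 6 control-arm libraries was 3.95 on the log2 scale in beetle replicate 2 and 0.76 in beetle replicate 1, and replicate 2 was at least 2-fold above replicate 1 in 69 genes, against 8.22% of all genes tested. Without beetle replicate 2, 0 genes were called, and without beetle replicate 1, 698. Leaving out 1 control library gave 11 calls without control 0 h replicate 2, 5 without control 0 h replicate 3, 212 without control 24 h replicate 1, 10 without control 24 h replicate 2, 8 without control 48 h replicate 1 and 9 without control 48 h replicate 3. A fit of the 12 USDA8380-1 libraries called 0.

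**Figure D5:**
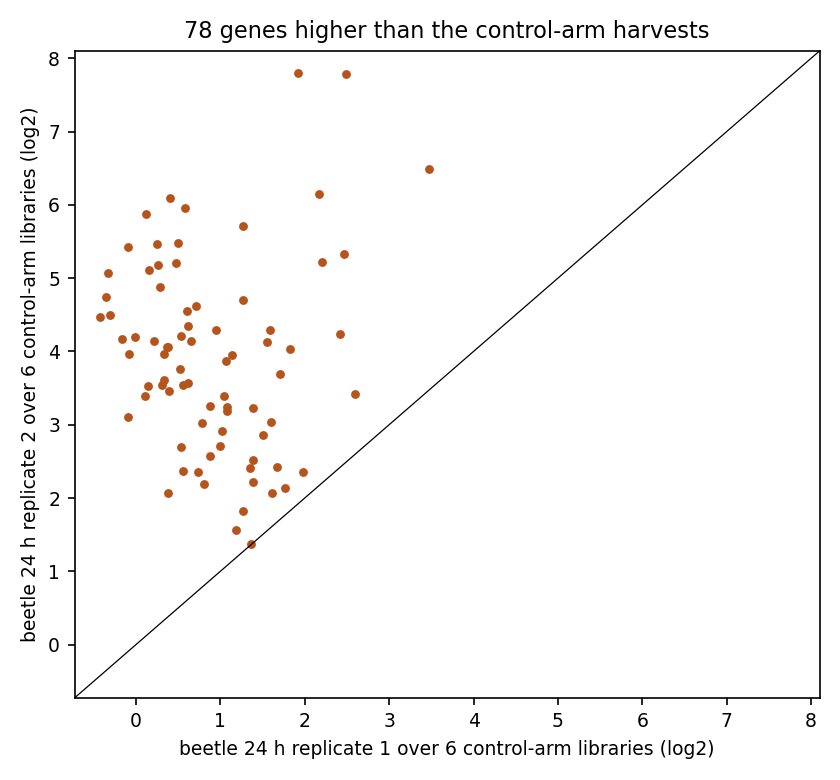
Level in beetle 24 h replicate 2 (vertical axis) against replicate 1 (horizontal axis), each as log2 over the mean of the 6 control-arm libraries, for the 78 genes that rose against the control-arm harvests. The diagonal line marks equal values, and 69 of the 78 genes lie at least 1 log2 unit above it.

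The EE501F2_093 libraries were not part of this contrast, but they entered the filter and the shared estimate of the spread behind the calls. At 24 h, 59 of the 78 were higher in its beetle leaves, with a median log2 fold change of 0.57 against 0.01 over all genes. Its beetle libraries lay above both its controls in 36 genes (46.2%, against 15.1% of all genes tested). In USDA8380-1 the comparisons at 0 and 48 h share control libraries with the choice of these genes. The median log2 fold change of the 78, beetle over control, was 0.61 at 0 h, before beetles, and 1.65 at 48 h, and it was 0.00 over all genes at both harvests. By sign, 53 of the 78 were higher at 0 h and 77 at 48 h. The beetle-arm libraries lay above both controls in 33 genes at 0 h (42.3%, against 22.4% of all genes tested). At 48 h they did so in 57 (73.1%, against 19.4%). Of the 78 genes, 25 lay in 10 runs (32.1%). Among genes held higher, which were chosen by another rule, the share was 18.9% at 24 h, 17.7% at 0 h and 26.3% at 48 h. It was 20.5% in EE501F2_093 at 24 h. The longest run among the 78 was 6 genes on chromosome 12. Its median was 4.40 in beetle replicate 2 and -0.55 in beetle replicate 1, both as log2 over the controls of 24 h.

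Soltu.DM.02G019450.4, on chromosome 2, had the largest rise by the naming rule. It was at 1.74 and 131 CPM in the beetle libraries of 24 h, and between 0 and 0.385 CPM in the 6 control-arm libraries. Both beetle libraries were above all 6 of these, and replicate 2 was far above replicate 1. Its log2 fold change was 9.42 (SE 1.27), with an adjusted p of 0.00527 by edgeR, a fitted value that rests on few counts in the control arm. It was at 0.0262 and 1.97 CPM in the beetle arm at 0 h and at 2.30 and 7.57 CPM at 48 h. The beetle-free library at 1.97 CPM lay above beetle replicate 1 of 24 h. It is the shallow beetle 0 h replicate 3, where this value rests on a count of 5, against 68 in beetle 24 h replicate 1. At 24 h in EE501F2_093 it was at 3.22 and 2.55 CPM in beetle leaves, against 0.219 and 0.365 CPM in control leaves, and at 0 h its control leaves were at 0.615 and 3.07 CPM. Without beetle 24 h replicate 2 the log2 fold change was 4.19 and the call was lost (adjusted p = 1.000). It was also lost at adjusted p of 0.0851, 0.0562, 0.0668 and 0.0726 without control 0 h replicate 3, control 24 h replicate 2, control 48 h replicate 1 and control 48 h replicate 3.

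Soltu.DM.08G005480.1, on chromosome 8, was at 28.3 and 232 CPM in the beetle libraries of 24 h, against 0.482 to 6.16 CPM in the 6 control-arm libraries. It rose by 5.74 on the log2 scale (SE 1.07, adjusted p = 0.0386 by edgeR). Against the 24 h controls alone the log2 fold change was 5.26 (SE 1.63) and was not called (adjusted p = 0.375 by edgeR). At 0 h, before beetles, it was at 5.42 and 7.88 CPM in the beetle arm, against 1.46 and 0.522 CPM in the control arm. At 48 h it was at 27.6 and 3.03 CPM, against 4.85 and 3.83 CPM, so beetle replicate 2 was below both controls. In EE501F2_093 at 24 h it was at 59.4 and 38.8 CPM in beetle leaves, against 61.8 and 192 CPM in control leaves, and all 4 of these values lay between those of the 2 USDA8380-1 beetle libraries. Without beetle 24 h replicate 2 the log2 fold change was 3.53 and the call was lost (adjusted p = 1.000). It was also lost without control 0 h replicate 2 (0.115), control 0 h replicate 3 (0.179), control 24 h replicate 2 (0.123), control 48 h replicate 1 (0.119) and control 48 h replicate 3 (0.138).

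The gene that fell in this comparison, Soltu.DM.04G000770.1 on chromosome 4, was at 0.743 and 0.478 CPM in the beetle libraries of 24 h and between 1.03 and 16.0 CPM in the 6 control-arm libraries. Its log2 fold change was -2.74 (SE 0.52), with an adjusted p of 0.0386 by edgeR. The call was lost without beetle 24 h replicate 2 (adjusted p = 1.000), and without control 0 h replicate 2 (0.101), control 0 h replicate 3 (0.154), control 24 h replicate 2 (0.0774), control 48 h replicate 1 (0.119) and control 48 h replicate 3 (0.113), with log2 fold changes between -2.36 and -2.77. At 48 h the order turned, with 3.39 and 3.48 CPM in the beetle arm, against 1.20 and 1.03 CPM in the control arm. The 24 h minus 48 h change of its beetle effect was -4.28 (SE 0.78) and was not called (adjusted p = 0.475 by edgeR). Soltu.DM.06G034550.2, described above, was also among the genes that rose (adjusted p = 0.00527 by edgeR), by 3.05 on the log2 scale with an SE of 0.40.

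Set against its own 0 h harvest, the beetle arm had 2 genes called at 24 h by edgeR (0.00804% of those tested), both lower, and 2883 at an unadjusted p under 0.05. DESeq2 called 587. The control arm over the same 24 h had 30 genes called (17 higher and 13 lower, 0.121%), and DESeq2 called 1941. The arms share no library in these contrasts, but time and beetles cannot be told apart in the beetle arm. Within each arm, the harvests came from the same cages and were fitted as independent groups. The beetle-arm count was 502 without beetle 0 h replicate 2, 441 without beetle 24 h replicate 1 and 1 without beetle 24 h replicate 2. The control-arm count was 3339 without control 24 h replicate 1, 6 without control 24 h replicate 2, and 0 without control 0 h replicate 2 or without control 0 h replicate 3.

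Both genes called in the beetle arm were lower at 24 h in the control arm as well. Soltu.DM.12G023800.1, on chromosome 12, was at 4.36 and 15.0 CPM at 24 h, against 66.6 and 92.6 CPM at 0 h in the beetle arm, a log2 fold change of -3.04 (SE 0.42, adjusted p = 0.0260 by edgeR). In the control arm it was at 8.70 and 8.45 CPM at 24 h, against 57.0 and 54.6 CPM at 0 h, a log2 fold change of -2.70 (adjusted p = 0.0414 by edgeR). It was not called without beetle 0 h replicate 3 (adjusted p = 0.0850). Soltu.DM.04G000770.1 was at 0.743 and 0.478 CPM at 24 h, against 16.6 and 13.4 CPM at 0 h in the beetle arm, a log2 fold change of -4.62 (SE 0.61, adjusted p = 0.0260 by edgeR), lost without beetle 24 h replicate 2 (0.432). In the control arm its log2 fold change was -2.03 with an adjusted p of 0.0741 by edgeR. The 24 h minus 0 h change of the beetle effect was -2.58 (SE 0.76, adjusted p = 0.456 by edgeR), so the fall is not shown to differ between the arms.

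Differences between effects were tested directly. The beetle effect at 24 h did not differ between USDA8380-1 and EE501F2_093 at an adjusted p of 0.05 by edgeR for any gene (1242 or 4.99% at an unadjusted p under 0.05, and 16 by DESeq2). The change of the beetle effect, 24 h minus 48 h, also passed for 0 genes by edgeR (2458 or 9.88% unadjusted, and 56 by DESeq2), as did 24 h minus 0 h (2258 or 9.08% unadjusted, and 111 by DESeq2, of which 12 were higher and 99 lower). For comparison, beetle against control at 48 h gave 0 calls (1311 or 5.27% unadjusted, and 19 by DESeq2). At 0 h, before beetles, it gave 1 higher gene (0.00402%, with 3227 or 13% unadjusted, and 386 by DESeq2). These 0 h counts were above those of the 24 h comparison (2876 or 11.6% unadjusted, and 237 by DESeq2). They include beetle 0 h replicate 3, shallow at 2114184 counts, so depth and cage differences cannot be told apart in them. In EE501F2_093 at 24 h the count was 0 (771 or 3.1% unadjusted, and 1 by DESeq2). Nothing in the 24 h comparison is therefore shown to be particular to this genotype or hour.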

How the data were processed

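Leaf mRNA was measured in 24 libraries. Per the labels' protocols, these were stranded mRNA libraries (TruSeq) sequenced from a single end (50 nt). Trimmomatic 0.35, STAR 2.7.3a, Picard and HTSeq were used, per the submitters' processing notes; their parameters, the genome build and the annotation were not given in the sources used here. For 32917 identifiers the authors deposited raw read counts per gene. The 5 HTSeq summary lines entered neither library sizes nor tests (reads outside genes were 9.63% to 10.8% in the 4 libraries described). The line for reads aligned at several places is 0 in every file.

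Genes passing filterByExpr (24870) were scaled with TMM; edgeR 4.0.16 (R 4.3.3) gave quasi-likelihood tests from 1 fit of 24 libraries, 12 groups and 12 residual degrees of freedom, with Benjamini-Hochberg adjustment and a threshold of 0.05. SE are those implied by the test statistic. Held genes used TMM CPM + 0.5 and a 2-fold minimum. DESeq2 1.42.0, RLE scaling, no filter, a replicate block and omitted libraries were alternatives.

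The members, lists and tests were chosen with earlier results of these data known. At most 2 genes per direction are named: at 24 h, the widest weakest-pair ratio among held genes with a mean of at least 5 CPM; elsewhere, the largest log2 fold change among called genes of that mean whose groups do not overlap. The planned gene lists and leaf markers could not be applied without gene names.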

Additional observations from a re-analysis of the deposited data

Results flagged for a closer look

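A pair of values stood far from the other control-arm libraries of USDA8380-1. Soltu.DM.11G013160.1 was at 318.5 CPM in control 0 h replicate 2, while the other 5 control-arm libraries lay between 0.913 and 48.1 CPM. Soltu.DM.06G030470.1 was at 18.82 CPM in control 24 h replicate 2, while the other 5 lay between 0.261 and 4.55 CPM. These were 2 of 8 named genes checked over the 6 control-arm libraries by Dixon's criterion. Its nominal rate of about 1 in 20 does not apply here. The genes were named from values that include some of these libraries, and the 6 libraries span harvests at 0, 24 and 48 h. The library behind the second value is the 24 h control that stood apart at many genes, and its part in that value was not tested.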

How the results depend on the processing

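With 2 against 2 libraries, counts of calls depended strongly on the tool and on single libraries, and the causes were not tested beyond the construction of each alternative. The 24 h comparison (0 calls) gave 0 to 1886 leaving out 1 library, 1 with the replicate number as a block, 1 with the numbers crossed, 4 without both libraries that stand apart and 237 by DESeq2. RLE scaling, no filter, robust dispersions, a fit of the 4 or the 12 libraries and a minimum log2 fold change of 1 kept 0. Against the control-arm harvests (79 calls) the counts were 0 to 698 leaving out 1 library, 130 with no filter, 3 with the replicate block, 0 in the fit of 12 libraries, 13 without both libraries that stand apart and 381 by DESeq2. The beetle arm at 24 h against 0 h (2 calls) gave 1 to 502 leaving out 1 library, 11 with no filter, 0 with the block and 587 by DESeq2. The control arm (30 calls) gave 0 to 3339, 17 with RLE scaling, 102 with no filter, 0 with the block and 1941 by DESeq2.

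Beetle against control at 48 h (0 calls) gave 0 to 12 leaving out 1 library and 19 by DESeq2, and at 0 h (1 call) 0 to 1265, 0 with the block and 386 by DESeq2. EE501F2_093 at 24 h gave 1 by DESeq2. The genotype difference gave 0 to 42 and 16 by DESeq2, the 24 h minus 48 h change 0 to 381 and 56 by DESeq2, and the 24 h minus 0 h change 0 to 930 and 111 by DESeq2. Held higher genes (53) numbered 122 with 0.1 CPM added, 271 at 1.5-fold, 3 at 4-fold, 33 with a mean of at least 5 CPM, 120 to 2408 leaving out 1 library, 13 against 6 control-arm libraries and 7 against 8 beetle-free libraries. Held lower genes (135) numbered 303, 407, 17, 56, 420 to 1870, 0 and 0 in the same order. RLE scaling and total counts kept both within 1.5 times.

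Same-numbered libraries of the 24 h arms had deviations correlated at -0.108 over 2 pairs. Only the difference between replicates in each arm entered, so this value cannot show whether the numbers mark shared plants. The labels do not tie libraries to plants, and the numbers were not taken as pairing. The crossed block was added after seeing the data, as were the comparisons with 6 and 8 libraries. Calls of all 4 named genes in the later comparisons were lost under the block.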
